A study of Mus musculus with 6 samples.

Results

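Genes for the axon guidance ligands and their receptors were followed through newborn mouse islet cells sorted by their history of Wnt4 expression. Members were taken by symbol: every Eph receptor, ephrin, semaphorin and plexin, the 2 neuropilins, Slit1 to Slit3, Robo1 to Robo3, the netrins Ntn1 and Ntn3 to Ntn5, the netrin receptors Unc5a to Unc5d, and Dcc, with Robo4 left out. The array measured 68 such genes through 114 probes, of 22911 genes with a symbol and 56605 probes in all. One of the 68, Plxna4os1, is a noncoding RNA antisense to Plxna4 that came in through its symbol.

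These families carry short-range and secreted cues that steer growing axons, migrating neural crest cells and sprouting blood vessels. Ephrins are membrane-bound ligands read by Eph receptor tyrosine kinases on the neighbouring cell, semaphorins bind plexins, with neuropilins as co-receptors for the secreted class 3, Slits bind Robos, and netrins bind Dcc and the Unc5 receptors. In islets the same molecules are found on endocrine, endothelial, mesenchymal and nerve cells, and EphA to ephrin-A contact between beta cells is known to adjust insulin secretion.

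By the methods the populations came from islets of Wnt4eGFPCre;mTmG pups at postnatal day 1. The alleles are Wnt4eGFPCre, an eGFP and Cre fusion knocked into Wnt4, and the mTmG reporter at Rosa26, which turns from membrane tdTomato to membrane GFP (mGFP) once Cre has acted. Wnt4hi cells were mGFP+ (replicates 2, 3 and 4, from 4, 4 and 3 pups) and Wnt4low cells mGFP- (replicates 1, 3 and 4, from 4, 4 and 3 pups). The mice had been crossed to C57BL/6J. The labels give the populations as Wnt4+ and Wnt4-, and a supplementary legend writes Wnt4eGFPCre Tg+ and Tg- for them, so it is not settled whether all mGFP- cells carried the Cre allele. By the methods mGFP recorded that a cell or its precursor had expressed Wnt4, not that it did so when sorted. The islets were hand-picked before sorting, and the sources used here name no cell type marker among the gates of this sort. RNA was amplified before hybridization to 6 single-colour arrays on 1 slide with 1 scan, so there was no slide or scan batch to test.

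Between 70.5% and 79.5% of spots on an array were well above background, with a median signal 10.8 to 15.6 times the median background and 0 saturated spots. Wnt4 itself was higher in Wnt4hi on the log2 scale by 1.08 ± 0.27 (SE, n = 3 and 3), a 2.11-fold difference with no overlap between populations (limma, adjusted p = 0.210). Endocrine and non-endocrine markers separated the populations as well. All 15 endothelial markers were lower in Wnt4hi, 13 of them at unadjusted p under 0.05 and 7 after adjustment, and their mean log2 intensity ran from 8.52 to 8.88 on the Wnt4hi arrays and from 11.00 to 12.05 on the Wnt4low arrays. The endothelial receptors Tek and Tie1 were well above background on 0 Wnt4hi arrays and on all 3 Wnt4low arrays. Of 12 pericyte and mesenchymal markers 11 were lower (8 passing), with mean log2 intensities of 10.80 to 11.88 in Wnt4hi and 12.28 to 12.51 in Wnt4low. Of 10 beta cell markers 9 were higher (6 passing), at 13.72 to 13.93 in Wnt4hi and 12.03 to 13.39 in Wnt4low. In such sorted bulk samples fewer cells of a type and less RNA per cell cannot be told apart, and the part of these cell types in the guidance gene differences below was not tested.

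Of the 68 guidance genes, 16 were lower and 2 higher in Wnt4hi at the study's threshold, an unadjusted p under 0.05 by limma (an empirical Bayes linear model). Over all 45616 array features, 5.53% were lower and 5.06% higher at the same threshold. After Benjamini-Hochberg adjustment over all features 1 guidance gene was lower (Plxnd1) and 0 were higher, where 0.406% and 0.0351% of all features passed. The Wnt4hi arrays all lay below the Wnt4low arrays for 15 guidance genes and all above them for 4, beside 6.44% and 9.63% of all features. The median log2 fold change (taken as Wnt4hi minus Wnt4low in every case) of the guidance genes was -0.14, beside 0.07 over all features, and single genes ran from -2.33 to 0.92. Below 0 lay 41 of the 68 genes and above it 27, where the shares over all features were 36.4% and 63.6%. Of the 45616 features 22705 had no gene symbol, and these 2 shares were not taken over named genes alone.

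Most of the set was measurable. For 57 genes the probe was well above background throughout at least 1 population, and of these 14 were lower and 2 higher with a median of -0.13, where 6.99% and 6.54% of the features measured as well passed. Robo3, Unc5d and Plxna4os1 were well above background on 0 arrays, and Epha8, Ephb1, Ntn4, Plxna4, Plxnc1, Sema3a, Sema3e and Sema4f on some arrays but on the whole set of neither population. Both sides of the pathway held genes that passed as lower: 7 of 34 ligands and 9 of 33 receptors did. Both genes that passed as higher, Efna3 and Sema4d, were ligands.

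**Figure D1:**
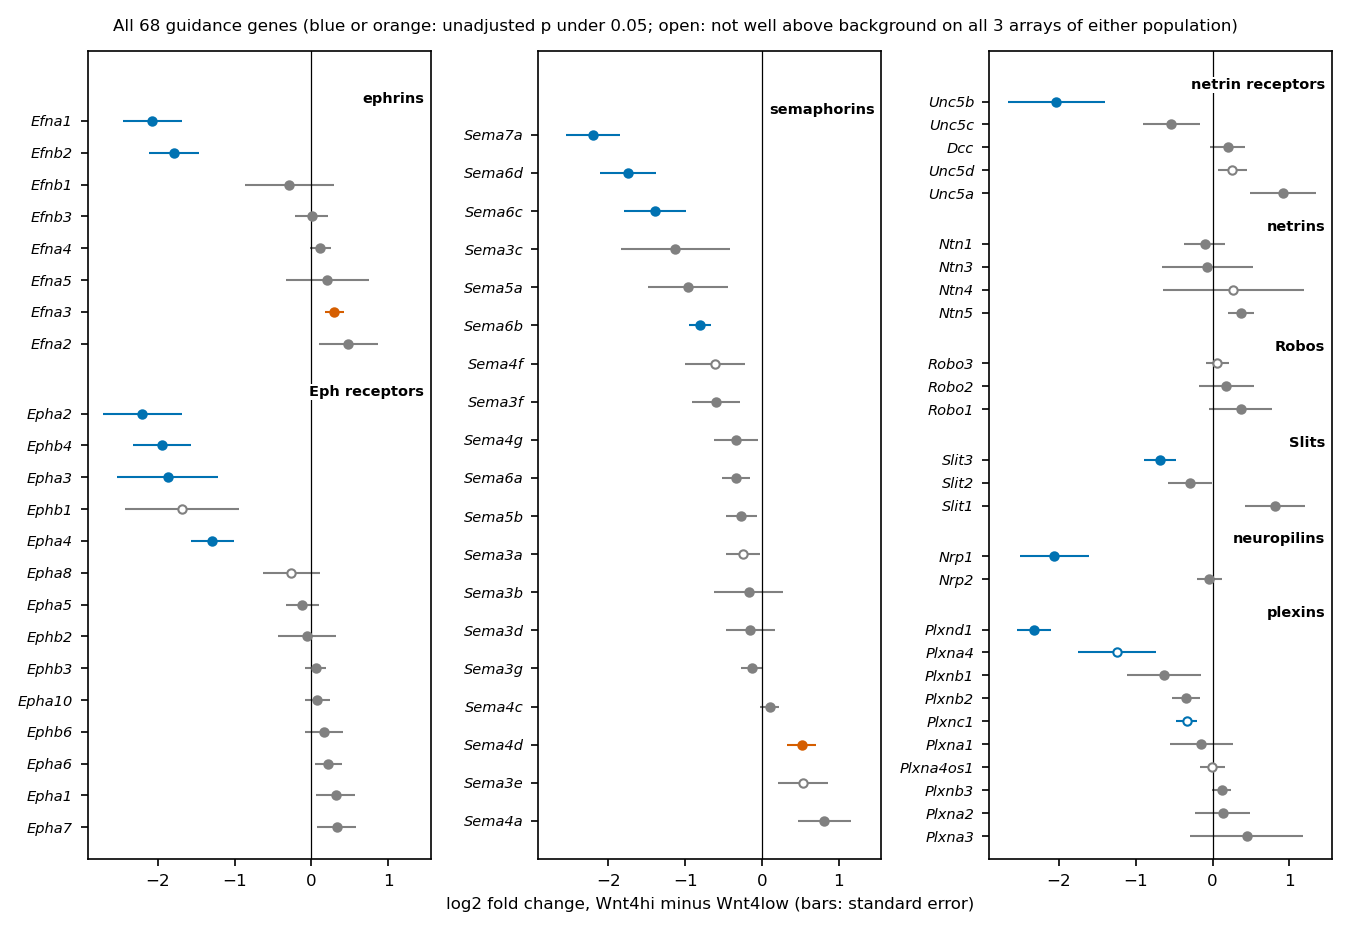
Log2 fold change, Wnt4hi minus Wnt4low, of all 68 guidance genes by family (3 arrays each; bars, standard error). Blue and orange points have an unadjusted p under 0.05, open points were dim, being well above background throughout neither population, and their folds are not to be read as exact, and 16 blue points lie left of 0 against 2 orange points to the right.

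Among the 14 Eph receptors, 4 passed as lower in Wnt4hi and 0 as higher, with a family median of -0.08. Epha2, an EphA receptor of epithelial and endothelial cells, had log2 intensities of 9.90, 8.28 and 10.28 in Wnt4hi replicates 2, 3 and 4 and 11.51, 11.73 and 11.83 in Wnt4low replicates 1, 3 and 4. The Wnt4low arrays were close together and all above the Wnt4hi arrays, which spread over about 2 log2 units with replicate 3 lowest. Epha2 was 4.59-fold lower in Wnt4hi, at a log2 fold change of -2.20 ± 0.51 (SE; adjusted p = 0.179), and 3.03-fold lower without Wnt4hi replicate 3 (-1.60). Ephb4, the ephrin-B2 receptor known as a marker of veins, had 10.86, 9.83 and 11.08 in Wnt4hi and 12.97, 12.24 and 12.40 in Wnt4low. No array overlapped, and its log2 fold change was -1.94 ± 0.38 (adjusted p = 0.119).

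Epha4, which binds both ephrin-A and ephrin-B ligands, had 9.50, 9.13 and 9.56 in Wnt4hi and 10.16, 10.77 and 11.13 in Wnt4low. The Wnt4hi arrays were tight and the lowest Wnt4low array, replicate 1, was still above them (-1.29 ± 0.28, adjusted p = 0.150). Epha3, an ephrin-A receptor of mesenchymal and neural tissue, had 9.99, 7.52 and 9.56 in Wnt4hi and 10.54, 10.76 and 11.38 in Wnt4low. The populations did not overlap, but Wnt4hi replicate 3 carried much of the difference: the log2 fold change of -1.87 ± 0.66 (adjusted p = 0.379) became -1.12 without it, and it missed the threshold without Wnt4low replicate 3 (unadjusted p = 0.0614) or Wnt4low replicate 4 (unadjusted p = 0.0887).

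The other 10 Eph receptors missed the threshold. Ephb1, a receptor of axon pathway choice, had 6.64, 6.76 and 8.23 in Wnt4hi and 9.37, 7.42 and 9.88 in Wnt4low (-1.69, 95% interval -3.49 to 0.12), with 1 Wnt4hi and 2 Wnt4low arrays well above background. Epha1, Epha5, Epha6, Epha7, Epha10, Ephb2, Ephb3 and Ephb6 lay between -0.12 and 0.33, and Epha8 was well above background only in Wnt4low replicate 3. The probe of Ephb3 was near the top of the scale on all 6 arrays (16.28 to 16.54). Epha5, the receptor named most often for contact between beta cells, had means of 8.15 ± 0.23 in Wnt4hi and 8.27 ± 0.33 in Wnt4low (SD, n = 3 each).

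Of the 8 ephrins, 2 passed as lower and 1 as higher, and the family median was 0.06. Efna1, an ephrin-A ligand of Epha2, had log2 intensities of 8.42, 7.98 and 8.84 in Wnt4hi and 10.94, 9.71 and 10.79 in Wnt4low. Efnb2, the ephrin-B ligand of Ephb4 and a marker of arteries, had 11.22, 10.56 and 10.60 in Wnt4hi and 12.76, 11.96 and 13.02 in Wnt4low. For both ligands Wnt4low replicate 3 was the lowest Wnt4low array and still lay above every Wnt4hi array. Their log2 fold changes were -2.07 ± 0.39 for Efna1 (adjusted p = 0.110) and -1.79 ± 0.33 for Efnb2 (adjusted p = 0.105). In the 2 receptor and ligand pairs Epha2 with Efna1 and Ephb4 with Efnb2, each partner was lower in Wnt4hi at unadjusted p under 0.05. The other ephrin-A genes, Efna2 to Efna5, lay between 0.12 and 0.48.

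Efna3, another ephrin-A, was the only ephrin that passed as higher, with 10.24, 10.38 and 10.24 in Wnt4hi and 9.96, 10.01 and 9.99 in Wnt4low. The difference of 0.30 ± 0.12 was small and without overlap (adjusted p = 0.460), and it missed the threshold whichever array was left out (unadjusted p from 0.0719 to 0.145). Efna5, the ephrin-A ligand usually paired with Epha5 in beta cells, had 10.37 in Wnt4hi replicate 2 and 8.44 to 9.12 on the other arrays. Efnb1, an ephrin-B ligand, was likewise highest in Wnt4hi replicate 2, at 11.28, with 8.88 and 9.67 in the other Wnt4hi arrays and 10.14 to 10.35 in Wnt4low. Neither difference passed (0.21 ± 0.54 and -0.29 ± 0.58). Without Wnt4hi replicate 2 they were -0.42 and -0.95, of which that of Efnb1 passed (unadjusted p = 0.0148), and Efnb1 turned to 0.25 without Wnt4hi replicate 4. Efna2, Efna4 and Efnb3 lay at 0.48, 0.12 and 0.01 and missed the threshold.

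The promoters of Ephb4 and Efnb2 are shown because this receptor and its ligand were lower together. Each run is the 250 bases before the RefSeq start on GRCm38.p6, read 5′ to 3′ along the gene's strand, with capitals marking matches on either strand to the GC box GGGCGG, the CCAAT box CCAAT, the TATA box TATAAA, the E-box CACGTG and the ETS core AGGAAG. Ephb4 lies on the plus strand (chr5:137349859-137350108) and Efnb2 on the minus strand (chr8:8661243-8661492).
Ephb4: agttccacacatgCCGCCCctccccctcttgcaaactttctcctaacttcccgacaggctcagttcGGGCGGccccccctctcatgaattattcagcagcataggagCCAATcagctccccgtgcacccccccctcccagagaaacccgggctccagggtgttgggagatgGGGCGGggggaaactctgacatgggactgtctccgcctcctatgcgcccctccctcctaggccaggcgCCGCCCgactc
Efnb2: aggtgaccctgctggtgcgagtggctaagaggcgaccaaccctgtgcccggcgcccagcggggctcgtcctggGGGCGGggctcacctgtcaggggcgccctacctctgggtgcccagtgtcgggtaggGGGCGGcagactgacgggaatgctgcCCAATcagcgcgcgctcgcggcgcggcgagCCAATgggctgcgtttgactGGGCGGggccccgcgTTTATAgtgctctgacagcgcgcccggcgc
The Ephb4 window held 4 GC boxes and 1 CCAAT box at 64% GC. The Efnb2 window held 3 GC boxes, 2 CCAAT boxes and 1 TATA box at 72% GC, with 27 CpG dinucleotides.

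Plexins and neuropilins, the semaphorin receptors, held the guidance gene with the smallest p. Plxnd1, the receptor of vascular patterning, had log2 intensities of 10.35, 9.81 and 10.11 in Wnt4hi and 12.76, 12.33 and 12.16 in Wnt4low. The arrays of each population lay within 1 log2 unit of each other, and the populations were well apart. Plxnd1 was 5.01-fold lower in Wnt4hi, at -2.33 ± 0.22 (95% interval -2.87 to -1.78; adjusted p = 0.0321). It was the one guidance gene past the adjusted threshold, and with any single array left out the adjusted p was 0.0544 to 0.124, although the log2 fold change stayed between -2.46 and -2.15.

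Nrp1, the co-receptor for class 3 semaphorins and VEGF, had 12.07, 11.97 and 11.51 in Wnt4hi and 14.91, 13.25 and 13.56 in Wnt4low. Wnt4low replicate 1 stood highest, and the remaining Wnt4low arrays were also above all Wnt4hi arrays. The log2 fold change was -2.06 ± 0.45 (adjusted p = 0.156). Its paralogue Nrp2 read 16.13 to 16.55 on all 6 arrays through its brightest probe, near the top of the scale, with a log2 fold change of -0.04.

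Of the 10 genes whose symbols start with Plxn, 3 passed as lower, and of these Plxna4 and Plxnc1 passed at dim signal. Plxna4, a partner of neuropilins in axon repulsion, had 6.42, 6.46 and 6.40 in Wnt4hi, all too dim to count as above background, and 8.36, 6.44 and 8.21 in Wnt4low, where replicates 1 and 4 measured it. By a bound it was at least 1.26-fold lower in Wnt4hi (adjusted p = 0.470). The bound sets the Wnt4low mean against the lowest well-measured signal of each Wnt4hi array and leaves out the spread between arrays. The 95% interval of the log2 fold change, -2.48 to -0.005, ended close to no difference. Wnt4low replicate 3 lay within the Wnt4hi range. Plxnc1, the semaphorin 7A receptor, was measured on 1 Wnt4low array and was at least 1.11-fold lower by the same bound (adjusted p = 0.459). With arrays left out in turn, Plxna4 passed only without Wnt4low replicate 3 and Plxnc1 only without Wnt4hi replicate 4. The Plxna4 bound was 1.93-fold without Wnt4low replicate 3 and gave no fold without Wnt4low replicate 1, while the Plxnc1 bound fell to 1.00-fold without Wnt4hi replicate 3. Plxna1, Plxna2, Plxna3, Plxnb1, Plxnb2 and Plxnb3 lay between -0.63 and 0.44 and missed the threshold, with Plxnb2 at 10.65 to 10.67 on all Wnt4low arrays and 10.00 to 10.62 in Wnt4hi.

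The promoters of Plxnd1 and Nrp1, receptors that act together in semaphorin signalling, are printed with the same marks. Plxnd1 lies on the minus strand (chr6:115995006-115995255) and Nrp1 on the plus strand (chr8:128358823-128359072).
Plxnd1: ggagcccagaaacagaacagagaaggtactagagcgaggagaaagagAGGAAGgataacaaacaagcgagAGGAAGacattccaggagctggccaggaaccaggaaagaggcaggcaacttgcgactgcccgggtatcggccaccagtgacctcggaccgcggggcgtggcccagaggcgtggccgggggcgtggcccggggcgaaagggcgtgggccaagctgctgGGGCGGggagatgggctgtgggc
Nrp1: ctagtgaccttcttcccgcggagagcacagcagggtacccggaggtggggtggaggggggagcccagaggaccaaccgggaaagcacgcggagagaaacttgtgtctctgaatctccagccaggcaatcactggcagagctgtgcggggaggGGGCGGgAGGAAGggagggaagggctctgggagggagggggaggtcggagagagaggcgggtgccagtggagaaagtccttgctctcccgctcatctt
Both windows held 1 GC box, with 2 ETS core matches for Plxnd1 and 1 for Nrp1. RefSeq promoters were at hand for 57 of the 68 genes, 72 windows in all. The GC box was in 70.8% of these windows and in 32.7% of all 32851 RefSeq promoter windows of this length, and the ETS core in 31.9% and 29.5%. The CCAAT box was in 26.4% and 33.8%, the TATA box in 2.78% and 12.4%, and the E-box in 4.17% and 6.02%. A match is only a match of letters, and the windows of a gene with several starts can overlap.

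Among the 19 semaphorins 4 passed as lower and 1 as higher, with a median of -0.33. The transmembrane class 6 semaphorins, ligands of the plexin-A receptors, were 3 of the 4 that passed as lower. Sema6d had 9.97, 11.09 and 11.30 in Wnt4hi and 12.45, 12.41 and 12.74 in Wnt4low (-1.74 ± 0.36, adjusted p = 0.140). Sema6c had 9.79, 9.51 and 11.00 against 11.72, 11.46 and 11.31 (-1.39 ± 0.40, adjusted p = 0.271), but its second probe gave 0.23 ± 0.51. Sema6b had 11.44, 11.39 and 11.47 against 12.39, 12.28 and 12.03 (-0.80 ± 0.14, adjusted p = 0.0988). For none of the 3 did the populations overlap, and in Wnt4hi the Sema6b arrays were nearly equal. The fourth of the class, Sema6a, was at -0.33 ± 0.18 and missed the threshold.

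Sema7a, the membrane-anchored semaphorin that binds integrins and Plxnc1, had 6.05, 6.15 and 6.38 in Wnt4hi and 9.18, 7.93 and 8.07 in Wnt4low. All 3 Wnt4low arrays measured it well above background and 0 Wnt4hi arrays did. Sema7a was at least 2.09-fold lower in Wnt4hi (adjusted p = 0.0748), a bound, beside group means of 6.19 ± 0.17 and 8.39 ± 0.69 (SD, n = 3 each).

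Sema4d, a plexin-B ligand, was the only semaphorin that passed as higher in Wnt4hi, with 9.82, 9.51 and 9.85 there and 9.08, 9.04 and 9.50 in Wnt4low. The lowest Wnt4hi and highest Wnt4low arrays were nearly equal, and the log2 fold change of 0.52 ± 0.19 (adjusted p = 0.397) missed the threshold without Wnt4hi replicate 2 or 4 or Wnt4low replicate 1 or 3 (unadjusted p from 0.0862 to 0.0966). Sema4a, of the same class, was well above background on all 3 Wnt4hi arrays (8.14, 7.51 and 8.82) and on 0 Wnt4low arrays (7.09, 7.40 and 7.53). Wnt4hi replicate 3 lay just below Wnt4low replicate 4, so the populations overlapped. By the bound, which leaves out the spread between arrays, Sema4a was at least 1.67-fold higher in Wnt4hi. The 95% interval of its log2 fold change was -0.02 to 1.65, and the unadjusted p of 0.0542 missed the threshold (adjusted p = 0.486).

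None of the 7 secreted class 3 semaphorins, the ligands of neuropilin and plexin-A complexes, passed, and their median was -0.17. Sema3c had 8.10, 6.52 and 8.74 in Wnt4hi and 9.29, 7.81 and 9.65 in Wnt4low (-1.13, 95% interval -2.85 to 0.59), an overlap that left a difference in either direction possible. Sema3e, the Plxnd1 ligand, had 8.51, 7.44 and 7.46 in Wnt4hi, 2 of them well above background, and 7.18, 7.53 and 7.10 in Wnt4low, with 0 so. The populations overlapped, and the bound of 1.29-fold higher rested on Wnt4hi replicate 2, falling to 1.01-fold without it. Sema3a was well above background on 1 Wnt4hi array. Sema3b, Sema3d, Sema3f and Sema3g lay between -0.60 and -0.13. The class 5 genes Sema5a and Sema5b were at -0.96 and -0.27, and the class 4 genes Sema4c, Sema4f and Sema4g at 0.10, -0.62 and -0.34, with the brightest Sema4c probe near the top of the scale at 16.18 to 16.42.

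**Figure D2:**
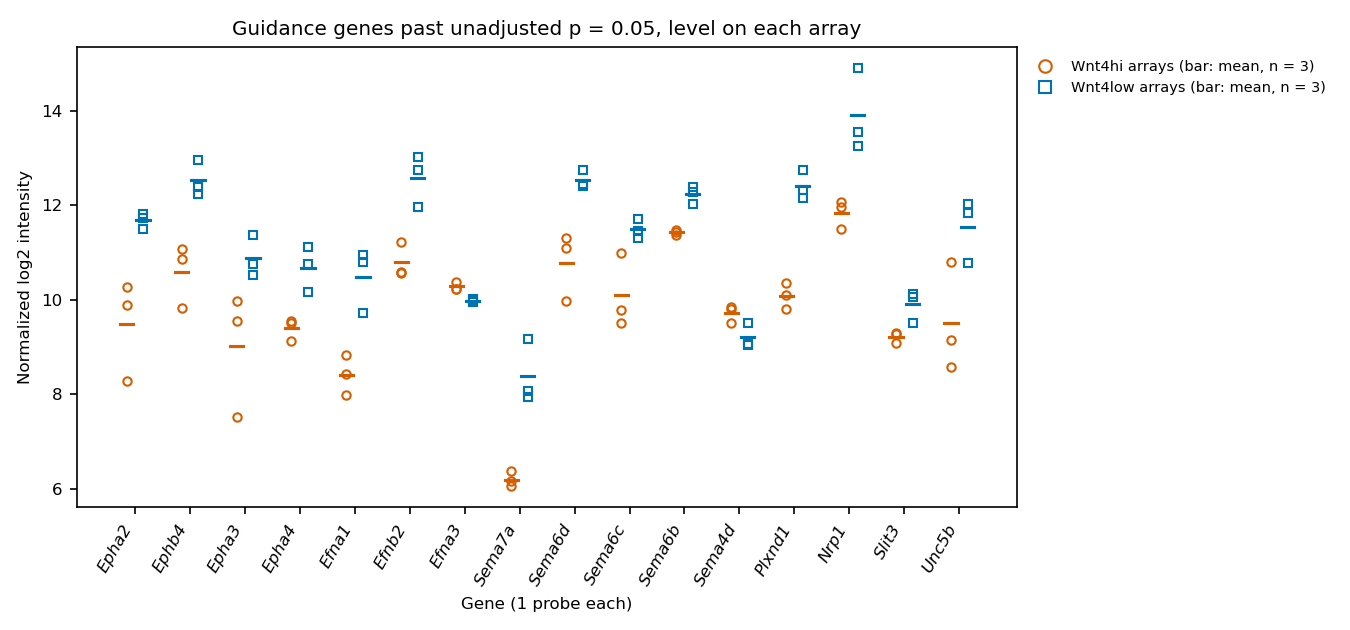
Normalized log2 intensity on each array of the 16 guidance genes with an unadjusted p under 0.05 that were well above background throughout the higher population (circles, Wnt4hi; squares, Wnt4low; bars, means of 3). For 14 genes the Wnt4low mean is higher, and among these only Unc5b has a Wnt4hi array that reaches the Wnt4low arrays.

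Of the Slit, Robo and netrin genes and the netrin receptors, Slit3 and Unc5b passed. Among the 3 Slits, the secreted Robo ligands, Slit3 had 9.09, 9.27 and 9.30 in Wnt4hi and 10.13, 10.07 and 9.51 in Wnt4low. The Wnt4low replicate 4 array came close to the Wnt4hi arrays without overlap (-0.68 ± 0.20, adjusted p = 0.289). Slit1 was at 0.82 (95% interval -0.13 to 1.77) and Slit2 at -0.29 (-0.99 to 0.41), and neither passed. Robo1 and Robo2, the Slit receptors that were measured, had log2 fold changes of 0.37 (-0.63 to 1.37) and 0.18 (-0.70 to 1.06).

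Unc5b, the repulsive netrin receptor known from endothelial tip cells, was the 1 netrin receptor of 5 that passed. It had 9.15, 10.81 and 8.58 in Wnt4hi and 12.03, 10.78 and 11.84 in Wnt4low. The replicate 3 arrays of both populations were nearly equal, while the other Wnt4hi arrays were far below the other Wnt4low arrays. The log2 fold change of -2.03 ± 0.63 (adjusted p = 0.315) became -2.68 without Wnt4hi replicate 3, and it missed the threshold without Wnt4hi replicate 4 (unadjusted p = 0.0526), Wnt4low replicate 1 (unadjusted p = 0.0569) or Wnt4low replicate 4 (unadjusted p = 0.0567).

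Unc5a, another receptor of the family, had 9.63, 9.27 and 9.54 in Wnt4hi and 8.13, 9.58 and 7.99 in Wnt4low. Here too the replicate 3 arrays were the close ones, and the difference of 0.92 (95% interval -0.14 to 1.97) missed the threshold. Dcc, the attractive netrin receptor, had 12.77, 12.36 and 12.27 against 12.65, 12.07 and 12.07 (0.20, interval -0.35 to 0.75), and Unc5c was at -0.54. The netrin ligands Ntn1, Ntn3, Ntn4 and Ntn5 were at -0.10, -0.07, 0.27 and 0.37, with 0 passing.

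A gene's value came from its brightest probe, and 33 of the 68 genes had more than 1. In a fit over all probes, every probe passed and was lower in Wnt4hi for 5 of the 9 passing genes with several probes: Epha3, Ephb4, Nrp1, Sema6d and Unc5b. The 3 Nrp1 probes gave -2.06, -2.79 and -1.16 and 2 Sema6d probes -1.74 and -1.42, while the remaining Sema6d probe was well above background on 0 Wnt4hi arrays and at least 2.17-fold lower there. The second Plxnd1 probe gave -1.15 ± 0.48 with an unadjusted p of 0.0506, and the second Sema6c probe 0.23 ± 0.51, so the lower value of Sema6c rests on 1 of its 2 probes. In that fit over all probes the brightest probes of Plxnc1 and Efna3 no longer passed (unadjusted p = 0.0508 and unadjusted p = 0.0529), and their second probes gave -0.11 ± 0.45 and -0.11 ± 0.26.

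For 7 genes whose brightest probe missed the threshold another probe passed, and it was lower in Wnt4hi in all 7. These were 29.2% of the 24 guidance genes with several probes that missed, beside 12.5% of all 6711 such genes on the array (7.51% with every such probe lower). The widest gap was in Nrp2, co-receptor for class 3 semaphorins in lymphatic and venous vessels. A probe to its transcript NM_001077403 read 8.54, 6.88 and 8.98 in Wnt4hi and 11.97, 11.12 and 11.98 in Wnt4low, far apart and without overlap (-3.55 ± 0.58, adjusted p = 0.0774). The remaining Nrp2 probe gave -0.23 ± 0.28. The other genes were Sema5a (-1.88), Sema6a (-1.67), Slit2 (-1.48), Plxna2 (-1.08), Sema3f (-0.81) and Epha5. The Epha5 probe that passed was well above background on 0 Wnt4hi arrays and at least 1.26-fold lower, while the remaining Epha5 probe gave -0.13 ± 0.19.

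**Figure D3:**
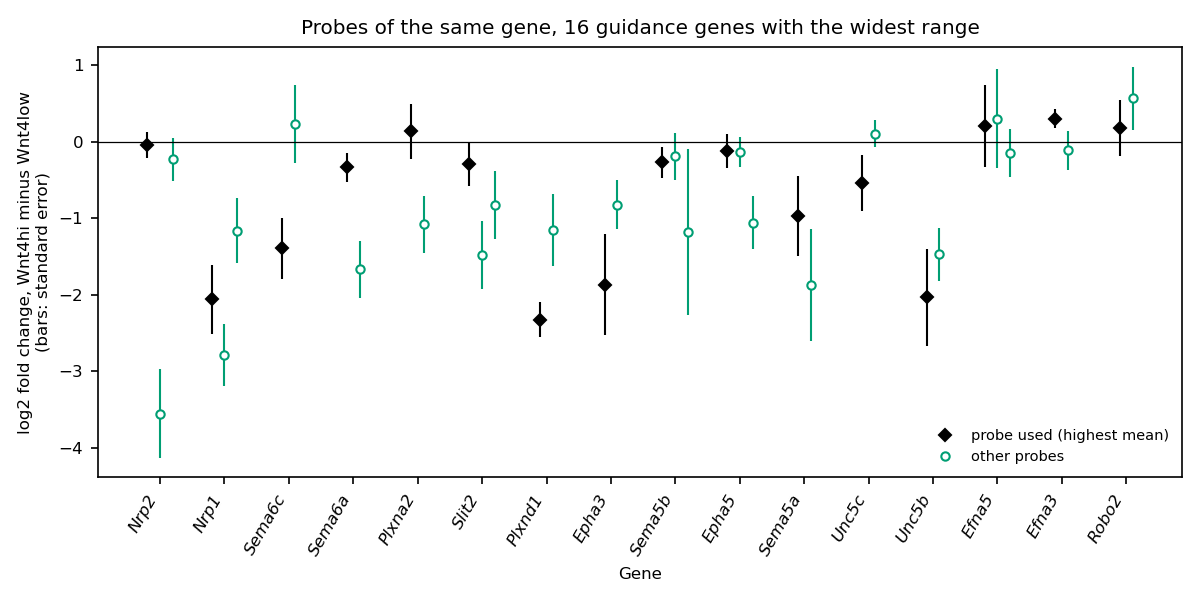
Log2 fold change, Wnt4hi minus Wnt4low, of every probe of the 16 guidance genes whose probes range most widely (diamonds, the brightest probe, which stands for the gene; circles, other probes; bars, standard error; 3 arrays each). The Nrp2 probes run from -3.55 to -0.04, while all Nrp1 probes lie below -1. The lowest Epha5 probe and 1 Slit2 probe were dim on all Wnt4hi arrays, so their plotted folds are fitted values and not exact.

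Downstream and neighbouring genes of the pathway, a list of 84 written from their textbook roles, were measured for 83. Of these 17 were lower and 3 higher in Wnt4hi at unadjusted p under 0.05, beside 5.53% and 5.06% of all features, so the higher ones were no more frequent than over the array. The 17 became 9 without Wnt4low replicate 4, 25 without Wnt4low replicate 3 and 11 under the methods' t-test. After adjustment 0 passed in limma, and the median was -0.27. Cxcr4 and its ligand Cxcl12, a chemokine pair that guides migrating cells and axons, were at -2.68 ± 0.40 (adjusted p = 0.0684) and -2.64 ± 0.41 (adjusted p = 0.0710), with no overlap for either. The adhesion and guidance protein Flrt2, the L1 family adhesion molecule Chl1 and the Rac activator Dock1 followed at -2.05, -1.97 and -1.57. The other 12 lower genes were Rgs3, Myl12a, Rras, Abl1, Dpysl3, Vav3, Rock2, Rhoa, Rgma, Rac1, Dpysl4 and Fes, from -1.52 to -0.39.

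The 3 higher genes were Grb7, an adaptor that binds Eph and other receptor kinases, Pak3, a kinase driven by Rac and Cdc42, and Mical3, of the family that links plexins to actin. Grb7 had 11.43, 11.81 and 11.58 in Wnt4hi and 9.03, 10.24 and 9.81 in Wnt4low (1.91 ± 0.32, adjusted p = 0.0854). Pak3 had 13.16, 12.40 and 12.46 against 11.05, 10.33 and 11.26 (1.79 ± 0.32, adjusted p = 0.0986). Both were well separated, while Mical3 differed by 0.56 ± 0.22 (adjusted p = 0.439).

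The guidance families and the cell type markers were also set side by side array by array. The median deviation of the 14 Eph receptors from their own mean over the 6 arrays was -0.23 to -0.01 in Wnt4hi and 0.03 to 0.18 in Wnt4low, against -1.58 to -1.01 and 0.96 to 2.07 for the 15 endothelial markers. The same medians were -0.82 to -0.38 and 0.13 to 1.09 for the 2 neuropilins, -0.39 to 0.003 and 0.07 to 0.44 for the plexins, and -0.28 to -0.07 and 0.01 to 0.27 for the semaphorins. The ephrins, netrins, netrin receptors, Robos and Slits overlapped between the populations. Of the 14 lower guidance genes in the plot of levels by array, 9 had their highest Wnt4low value in replicate 1 and the other 5 (Efnb2, Epha2, Epha3, Epha4 and Sema6d) in replicate 4. Within Wnt4low the endothelial, duct and delta cell lists had their highest mean in replicate 1, the acinar and beta cell lists in replicate 3, and the other 6 lists in replicate 4. Macrophage and leukocyte markers were lower in Wnt4hi too, 9 of 10 with 4 passing (10.10 to 10.69 against 11.21 to 11.43), as were 7 of 8 Schwann and neural crest markers with 2 passing. Of 6 neuronal markers 4 were lower with 3 passing, while Tubb3 and Elavl4 lay at 0.76 and 0.34. The endocrine lists did not all move one way. All 6 alpha cell markers (3 passing) and both PP and epsilon cell markers (2 passing) were higher in Wnt4hi, while the delta cell markers Sst and Hhex were lower and passed, at -0.56 and -1.75. All 8 acinar markers were lower (2 passing). The 7 duct markers were split, with 3 lower (1 passing), 4 higher (0 passing) and a median of 0.11.

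**Figure D4:**
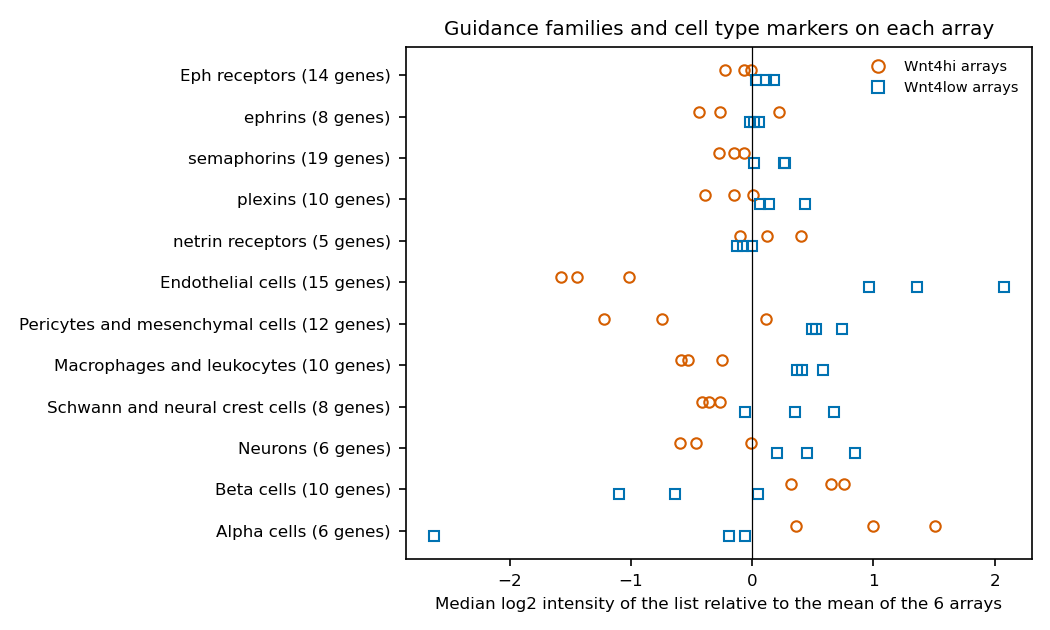
Median log2 intensity of each guidance family and each cell type marker list on the 6 arrays, relative to the mean of each gene over the arrays (circles, Wnt4hi; squares, Wnt4low). Endothelial markers span -1.58 to 2.07 and are lower on all Wnt4hi arrays, while the Eph receptors span -0.23 to 0.18, the semaphorins -0.28 to 0.27 and the plexins -0.39 to 0.44.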

How the data were processed

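Total RNA of 6 sorted samples (3 Wnt4hi, 3 Wnt4low, islets of 3 or 4 pups pooled in each) was amplified from sub-nanogram amounts and hybridized to single-colour Agilent mouse arrays. The deposited scanner files give red-channel intensity per spot, extracted by the authors with Feature Extraction (version 9.1 in the submitters' processing notes, 12.0.1.1 in the file headers). Per the labels, the deposited value table holds log2 intensities that the authors had normalized; it served as an alternative only.

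Median intensities were background-corrected (normexp, offset 50), outlier spots removed, values quantile-normalized, and spots averaged per probe. The probe with the highest mean stood for a gene. limma 3.58.1 (R 4.3.3) was fitted over 45616 features, with Benjamini-Hochberg adjustment over all of them, and was tested on simulated data. RefSeq accessions of the array matched the names table for 25126 of 27845. Folds are bounds where a population had 0 arrays with the probe well above background. A bound allows for dim signal only, not for the spread between arrays. The p-values measure only the spread between these samples; nothing says whether the pools of a population came from separate litters. The number of arrays limits precision: an exact permutation test of 3 against 3 cannot go below a two-sided p of 0.1.

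Named with every array's value were guidance genes at unadjusted p under 0.05 and well above background throughout the higher population; others are given by their fold change, and those with array values beyond that rule were chosen after their values were seen. Of the other pathway genes, up to 5 in each direction with the largest changes that passed and were well above background in the higher population were named (3 passed upward); the other 12 lower ones were named after their values were seen. Members and lists were chosen with earlier results of these data known.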

Additional observations from a re-analysis of the deposited data

How the results depend on the processing

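Each result was recomputed under 20 alternatives set out at the start and 2 chosen after seeing the data (the probe with the highest mean under log2 16, and the authors' value table without Wnt4hi replicate 2, whose column correlated at only 0.276 with its own scanner array against 0.894 to 0.913 for the others). The count of 16 lower guidance genes stayed within 1.5 times in all of them and was 13 to 17 with single arrays left out; Efna1, Efnb2, Epha2, Epha4, Ephb4, Nrp1, Sema6d and Sema7a passed at unadjusted p in every alternative that measured them. The count of 2 higher genes was 1 with processed intensities, the mean of probes, the second probe or trend and robust estimation, 0 with cyclic loess, the authors' table (with or without that replicate) or a fixed replicate block, and 0 to 3 with arrays left out. The 1 gene past the adjusted threshold became 2 with an offset of 16, processed intensities, a filter on dim probes or the authors' table, and 0 with the mean of probes, the second probe, the methods' t-test, a fixed replicate block, the authors' table without Wnt4hi replicate 2, or any array left out. Lower genes among the other pathway genes went from 17 to 11 under the methods' t-test and 9 to 25 with arrays left out, and higher ones, 3 in the full data, were 2 to 4.

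Family medians are not firm. With arrays left out they ran from -0.21 to 0.045 for Eph receptors, -0.28 to 0.19 for ephrins, 0.05 to 0.30 for netrin receptors, -0.04 to 0.28 for netrins, -1.25 to -0.77 for neuropilins, -0.36 to -0.17 for plexins, 0.04 to 0.54 for Robos, -0.46 to -0.25 for semaphorins, -0.46 to -0.026 for Slits and -0.21 to -0.028 for all 68 genes. With the mean of probes and the second probe, in that order, they were -0.23 and -0.20 for Eph receptors, -1.64 and -3.17 for neuropilins, -0.55 and -0.19 for semaphorins and -0.68 and -0.68 for Slits. In the authors' table, with and then without Wnt4hi replicate 2, they were -0.23 and -0.26 for Eph receptors, -0.24 and -0.31 for ephrins, -0.061 and -0.13 for neuropilins (Nrp2 alone) and 0.19 and 0.079 for Slits, and -0.040 for netrin receptors without that replicate. Netrin receptors moved to -0.17 under the filter on dim probes, which removes Unc5d, ephrins to -0.22 under the fixed replicate block, and neuropilins to -2.81 with probes under 16. Among values that passed in either setting, signs turned for Efna3 (-0.11), Plxna2 (-1.08) and Sema6c (0.23) with the second probe, Epha1 (-0.59, and -0.66 without Wnt4hi replicate 2) and Efna5 (-0.46, without that replicate) in the authors' table. In all, 28 of the 68 genes changed sign in some alternative, 20 of them with an array left out, and of the 28 only Efna3 and Sema6c had passed in the full data. The causes were not tested.

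Leaving out 1 array also brought 13 genes that had missed the unadjusted threshold past it, with adjusted p of 0.0880 to 0.544 (limma). They were 26.0% of the 50 that had missed, beside 15.3% of all features that had. Without Wnt4hi replicate 2 this was Efnb1 (-0.95). Without Wnt4hi replicate 3 they were Efna2 (0.92), Sema4a (1.14) and Sema3a, dim in both populations. Without Wnt4hi replicate 4 they were Ephb1 (-2.20), Plxnb1 (-1.15), Plxnb2 (-0.50) and Slit1 (1.16). Without Wnt4low replicate 1 they were Sema5a (-1.39) and Sema6a (-0.49). Without Wnt4low replicate 3 they were Epha7 (0.56), Ephb1 (-2.42), Slit1 (1.09) and Unc5a (1.42), and without Wnt4low replicate 4 Sema3f (-0.91).

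The populations share replicate numbers 3 and 4 only, and deviations of same-numbered arrays correlated at -0.03 and 0.16, so the numbers were not taken as pairs. In the fixed replicate block Wnt4hi replicate 2 and Wnt4low replicate 1 had no partner, so its fold changes rest on replicates 3 and 4 only. It gave 16 lower and 0 higher guidance genes, but not the same genes, since 5 gained and 7 lost a call. The random replicate block (correlation 0.103) gave 16 lower and 3 higher. Dim signal limits Robo3, Unc5d and Plxna4os1. The brightest probes of Ephb3, Nrp2 and Sema4c lay near the top of the scale, at about the 99.9th percentile of probe means. With 0 saturated spots, whether this brightness limits their values was not tested.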

Other observations

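Relatives of the guidance families outside the symbol rule were looked at as a list made after the guidance results were known. Of 23 measured (the plexin-domain proteins Plxdc1 and Plxdc2, Slitrk1 to Slitrk6, Unc5cl, the netrin-G ligand family of Lrrc4, the myelin inhibitors with their receptors, and the reelin pathway), 1 was lower and 1 higher in Wnt4hi at unadjusted p under 0.05, shares near the 5.53% and 5.06% of all features, and the median log2 fold change was -0.02. Plxdc2, a membrane protein with a plexin repeat, had log2 intensities of 10.99, 9.84 and 10.35 in Wnt4hi and 11.59, 11.54 and 12.33 in Wnt4low. The populations did not overlap, and the log2 fold change was -1.42 ± 0.36 (limma, adjusted p = 0.207). Lrp8, a reelin receptor, had 10.76, 10.67 and 9.87 in Wnt4hi against 9.51, 9.61 and 9.57 in Wnt4low (0.87 ± 0.26, adjusted p = 0.285). Of the 6 Slitrk genes, neuronal membrane proteins with leucine-rich repeats, only Slitrk6 was well above background on all 6 arrays, at 10.41 to 11.38, and 0 passed.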
